A study of Arabidopsis thaliana with 24 samples.

Results

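Root hairs are tubular outgrowths of single root epidermal cells, and the 10 Arabidopsis genes described here act in their growth. They are EXPA7 (AT1G12560), EXPA18 (AT1G62980), GH9C1 (AT1G48930), PRP1 (AT1G54970), RHS13 (AT4G02270), MOP10 (AT5G05500), RHD2 (AT5G51060), COW1 (AT4G34580), RHS16 (AT4G29180) and MRH6 (AT2G03720). The 10 loci, of 33602 counted, were chosen by name because they were high in 41-OX shoots in these same data. Their difference between 41-OX shoots and the other shoots is therefore given as a description without a test. RNA was sequenced from roots and shoots of 7-day-old seedlings in a series on regulators of vascular proliferation, per its title. WT is Col-0, pxy carries the pxy-5 mutation of PXY, which encodes a receptor kinase, and the line 41-OX has constitutive CLE41, which encodes a peptide ligand of that receptor. The labels give neither the promoter that drives CLE41 nor how many lines were sampled, and no agent was applied to any group per the labels. Per the design text, 4 biological replicates were taken for each of 6 combinations of organ and genotype. The WT shoot library of replicate 2, with 167131 counts, and the library labelled pxy root replicate 2, with a shoot profile, were left out. The 22 libraries used were 4 WT, 3 pxy and 4 41-OX roots, and 3 WT, 4 pxy and 4 41-OX shoots.

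A root hair elongates only at its tip. Vesicles bring wall material there, the wall is loosened and then strengthened behind the tip, and reactive oxygen and calcium signals keep growth at one point. Basic helix-loop-helix transcription factors, among them RHD6 and RSL4, switch on the genes of hair growth in the root epidermis. Leaves bear trichomes, which are another kind of epidermal hair under partly shared regulators. Of the 10 genes, 6 encode proteins of the cell wall. EXPA7 and EXPA18 are expansins, which loosen the wall, and GH9C1 is a glycosyl hydrolase related to endoglucanases. PRP1 is a proline-rich wall protein, and RHS13 and MOP10 belong to the family of pollen Ole e 1 and extensin-like proteins. RHD2 is the NADPH oxidase that makes reactive oxygen at the hair tip, and COW1 is a phosphatidylinositol transfer protein needed for tip growth. RHS16 is a receptor-like kinase, and MRH6 is a protein with a universal stress protein domain.

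The stretches before 5 of these genes are shown because they hold, or in 1 case lack, a short shared sequence. Each is the 250 bases before the annotated start of the gene in the reference assembly TAIR10.1, read 5′ to 3′ on the gene's own strand. Capitals mark the core of the root hair element, a motif described in earlier work on the promoters of EXPA7 and its relatives.
EXPA7 (chr1:4276255-4276504, plus strand): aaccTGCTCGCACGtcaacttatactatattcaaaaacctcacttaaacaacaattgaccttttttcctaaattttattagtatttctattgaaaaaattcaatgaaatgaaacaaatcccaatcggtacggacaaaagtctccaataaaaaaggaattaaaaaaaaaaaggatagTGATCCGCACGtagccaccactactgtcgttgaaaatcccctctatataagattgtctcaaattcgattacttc
EXPA18 (chr1:23331313-23331562, plus strand): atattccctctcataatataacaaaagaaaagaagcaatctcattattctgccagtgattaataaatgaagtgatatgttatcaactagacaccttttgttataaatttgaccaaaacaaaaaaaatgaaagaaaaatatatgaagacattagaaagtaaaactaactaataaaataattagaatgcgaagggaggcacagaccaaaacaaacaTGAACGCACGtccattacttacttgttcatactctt
RHS13 (chr4:993040-993289, minus strand): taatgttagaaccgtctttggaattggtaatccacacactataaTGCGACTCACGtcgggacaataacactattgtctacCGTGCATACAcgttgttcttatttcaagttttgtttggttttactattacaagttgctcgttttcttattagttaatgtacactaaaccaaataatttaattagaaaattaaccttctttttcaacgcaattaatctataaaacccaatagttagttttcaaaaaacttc
MRH6 (chr2:1131870-1132119, plus strand): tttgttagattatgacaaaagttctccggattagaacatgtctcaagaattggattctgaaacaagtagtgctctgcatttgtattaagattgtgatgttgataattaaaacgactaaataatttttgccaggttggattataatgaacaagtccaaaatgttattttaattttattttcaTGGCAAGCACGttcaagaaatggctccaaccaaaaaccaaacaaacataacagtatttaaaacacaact
RHD2 (chr5:20762462-20762711, minus strand): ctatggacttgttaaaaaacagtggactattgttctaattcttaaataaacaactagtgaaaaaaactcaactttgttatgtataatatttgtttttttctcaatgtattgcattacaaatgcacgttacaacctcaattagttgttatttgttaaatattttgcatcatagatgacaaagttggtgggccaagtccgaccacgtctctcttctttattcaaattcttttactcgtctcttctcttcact
The core was searched on both strands as TG, then 3 or 4 bases of any kind, then TCACG or GCACG. In windows of 250 bases before to 50 after the annotated start, 8 of the 10 genes held it, and RHD2 and COW1 did not. Of 27443 nuclear protein-coding genes, 1357 held it in the same window, or 4.94%, and of 44 other root hair genes 6 did, or 13.6%. The motif was described on the promoters of EXPA7 and its relatives, and some root hair specific (RHS) genes were first named partly from it. The matches of these genes, the expansin genes among them, are therefore not independent of it. EXPA7 held it at positions -246 to -237 and -74 to -64, counted with the annotated start as 0. EXPA18 held 1 match before the start, at -36 to -27, and 1 after it, at 9 to 19. RHS13 held 2 matches on opposite strands at -206 to -196 and -170 to -161, and MRH6 held 1 at -69 to -59. The G-box sequence CACGTG, which shares the letters CACG with the core, was found in 1 of the 10 windows, that of GH9C1, and in 7.68% of all. A match describes the letters in a window and not the binding of a factor.

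The 22 libraries held 7033091 to 12226066 counts assigned to genes, so that 1 count is worth 0.0818 to 0.142 CPM. CPM, used for all levels below, is the count of a gene scaled to a common library total. In the shoots of WT and pxy several genes stood near 1 CPM and these low levels carry the largest relative error. Genes that were root-specific in the pooled WT and pxy libraries (a mean of at least 20 CPM in roots and at least 50-fold less in shoots) numbered 157 and include 6 of the 10. Their median level was 0.862% to 1.40% of the root mean in WT shoot libraries and 0.702% to 1.43% in those of pxy. In the shoot libraries of 41-OX it was between 5.44% and 6.78%. The low level in WT and pxy shoots is set by the definition of the class. The 41-OX libraries took no part in that definition, so a higher level there can follow partly from the choice. The median of shoot-specific genes in the root library of 41-OX replicate 4 was 11.4% of their mean in shoots, against 0.392% to 2.07% in the other 10 root libraries. In whole organs, fewer cells of a type and less RNA per cell cannot be told apart. All leaf photosynthesis markers were present in shoots, with a summed level of 14540 to 15130 CPM in WT shoots and 162.3 to 644.9 CPM in WT roots. Root cap markers were the reverse, with 65.2 to 76.0 CPM in WT roots and 0.254 to 0.457 CPM in WT shoots.

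All 10 genes were expressed at 41.9 to 206.1 CPM in roots and at 0.137 to 11.1 CPM in WT and pxy shoots. Their summed level was 951.5 to 1280 CPM in WT roots, 1149 to 1309 CPM in pxy roots and 791.4 to 1097 CPM in 41-OX roots. In shoots the sum was 21.8 to 27.7 CPM in WT, 22.1 to 42.9 CPM in pxy and 184.0 to 230.4 CPM in 41-OX. Every 41-OX shoot library thus lay above every WT and pxy shoot and below every root library.

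**Figure D1:**
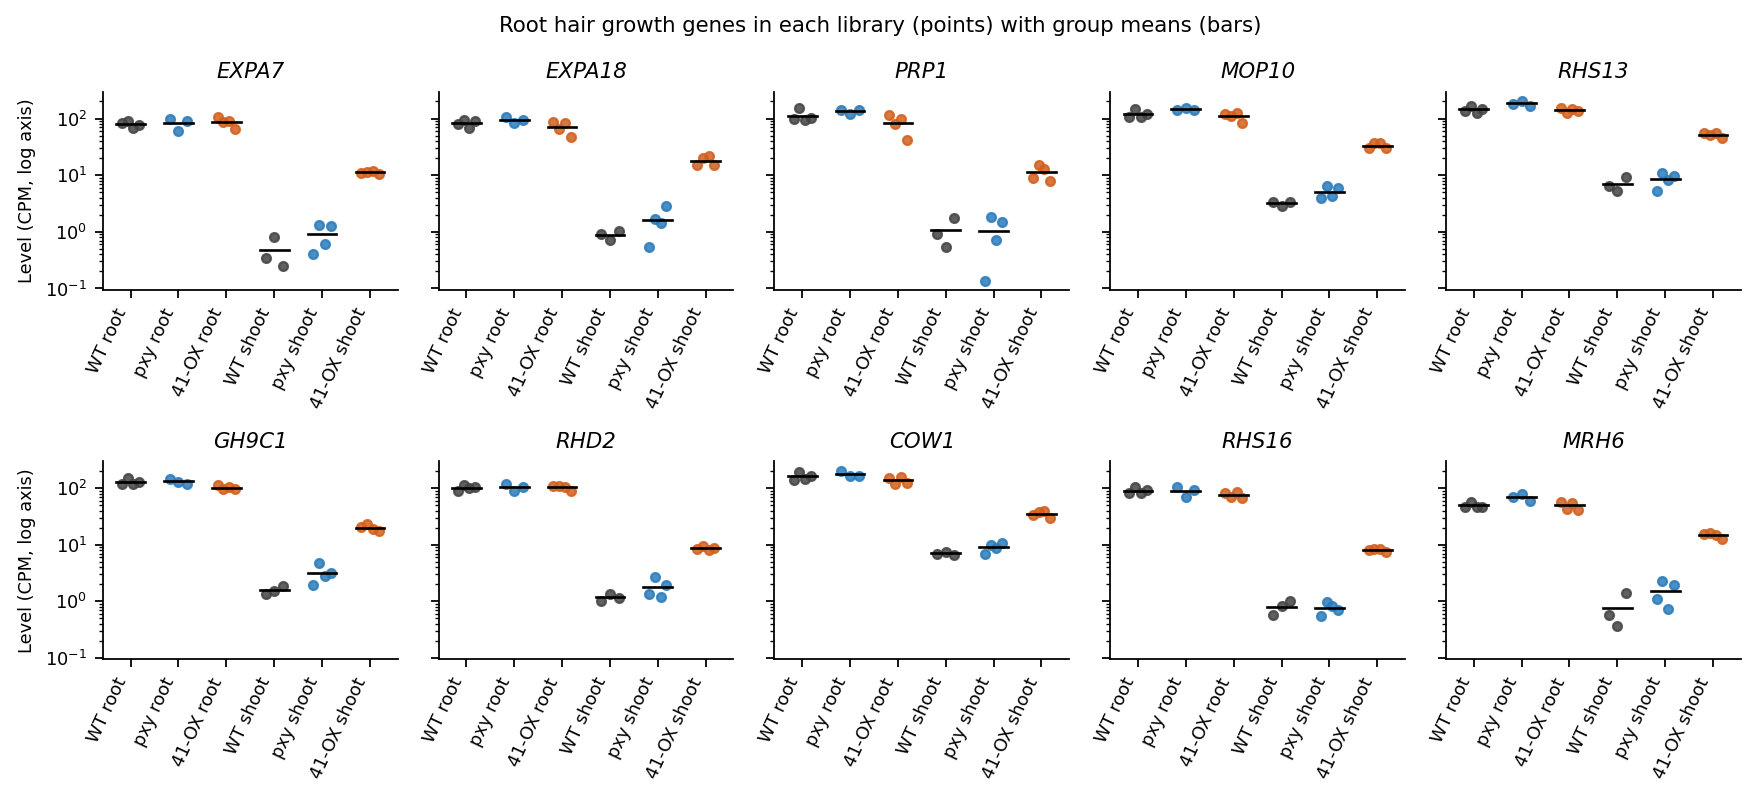
Level of each of the 10 genes in CPM on a log axis, in every library used (points) with the mean of each group (bars). The 3 root groups lie together at the top of each panel, WT and pxy shoots at the bottom, and the 4 41-OX shoots between them, as in the summed levels of 184.0 to 230.4 CPM.

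The expansin gene EXPA7 stood at 82.3, 91.0, 68.3 and 78.3 CPM in the 4 WT roots, at 99.1, 59.99 and 89.0 CPM in the 3 pxy roots and at 104.6, 88.2, 90 and 64.5 CPM in the 4 41-OX roots. In shoots it stood at 0.343, 0.814 and 0.254 CPM in WT, at 0.411, 1.34, 0.602 and 1.27 CPM in pxy and at 10.9, 11.3, 12.1 and 10.5 CPM in 41-OX. The 3 root groups overlap, WT and pxy shoots overlap, and the 41-OX shoots stand clear of both in a narrow band. EXPA7 had the largest log2 difference of the 10 between 41-OX and WT shoots, 4.37 (SE 0.31), and its WT level rests on few counts.

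EXPA18, the other expansin gene, stood at 81.6, 93.6, 69.4 and 88.8 CPM in WT roots, at 104.4, 83.2 and 94.6 CPM in pxy roots and at 87.1, 64.6, 82.0 and 47.2 CPM in 41-OX roots. In shoots it stood at 0.914, 0.724 and 1.02 CPM in WT, at 0.549, 1.70, 1.45 and 2.89 CPM in pxy and at 14.97, 20.4, 21.6 and 14.9 CPM in 41-OX. The lowest root library was 41-OX replicate 4, and pxy shoots spread more widely than WT shoots. In that root library shoot-specific genes had a median of 11.4% of their shoot mean, and root-specific genes 92.4% of their mean in WT and pxy roots. The log2 difference between 41-OX and WT shoots was 4.28 (SE 0.30).

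GH9C1 stood at 118.0, 152.2, 117.3 and 129.4 CPM in WT roots, at 146.2, 130.1 and 120.4 CPM in pxy roots and at 115.7, 94.8, 102.9 and 96.2 CPM in 41-OX roots. In shoots it stood at 1.37, 1.54 and 1.91 CPM in WT, at 1.92, 4.74, 2.77 and 3.12 CPM in pxy and at 20.8, 23.2, 19.1 and 17.7 CPM in 41-OX. It was the only gene of the 10 in which the shoot groups were ordered WT, pxy and 41-OX with no overlap and every 41-OX root lay below every WT root. The highest WT shoot and the lowest pxy shoot differed by less than the worth of 1 count. The log2 difference between 41-OX and WT shoots was 3.59 (SE 0.22). The annotated gene shares 90 bases with AT1G48920 on the opposite strand, which stood at a mean of 287.4 to 427.6 CPM in the WT and 41-OX groups, and the strand setting of the counting is not given in the sources used here.

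The proline-rich protein gene PRP1 varied widely between libraries of a group. It ranged from 94.4 to 155.7 CPM in WT roots, from 118.6 to 141.5 CPM in pxy roots and from 42.3 to 114.6 CPM in 41-OX roots. In shoots it ranged from 0.543 to 1.78 CPM in WT, from 0.137 to 1.82 CPM in pxy and from 7.81 to 15.1 CPM in 41-OX. The pxy shoot value of 0.137 CPM is a single count. The log2 difference between 41-OX and WT shoots was 3.37 (SE 0.40), the widest error of the 10.

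RHS13 and MOP10, of the Ole e 1 and extensin-like family, had the highest levels per length. RHS13 stood at 136.9, 168.8, 125.5 and 148.1 CPM in WT roots, at 181.9, 206.1 and 165.7 CPM in pxy roots and at 154.7, 124.1, 145.7 and 135.5 CPM in 41-OX roots. In shoots it stood at 6.40, 5.16 and 9.15 CPM in WT, at 5.21, 11.1, 8.31 and 9.84 CPM in pxy and at 55.3, 51.3, 56.2 and 44.9 CPM in 41-OX. The 41-OX shoots of RHS13 stand far above the other shoots and below all roots, and its pxy roots reach higher than its WT roots with an overlap. MOP10 ranged from 105.6 to 146.9 CPM in WT roots, from 140.5 to 150.9 CPM in pxy roots and from 83.0 to 125.8 CPM in 41-OX roots. Its shoot levels were 3.31, 2.90 and 3.30 CPM in WT, 3.98, 6.44, 4.21 and 5.90 CPM in pxy and 29.7, 36.9, 37.1 and 29.6 CPM in 41-OX. The log2 differences between 41-OX and WT shoots were 2.87 (SE 0.19) for RHS13 and 3.33 (SE 0.17) for MOP10.

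Among the genes that do not encode wall proteins, RHD2 had nearly equal root means in the 3 genotypes. The NADPH oxidase gene stood at 87.9, 114.5, 100.3 and 105.3 CPM in WT roots, at 117.5, 88.6 and 103.7 CPM in pxy roots and at 107.5, 109.4, 104.6 and 88.9 CPM in 41-OX roots. In shoots it stood at 1.03, 1.36 and 1.14 CPM in WT, at 1.37, 2.67, 1.204 and 1.97 CPM in pxy and at 8.27, 9.42, 8.25 and 8.90 CPM in 41-OX. Its 3 root group means were 102.0, 103.3 and 102.6 CPM, and its log2 difference between 41-OX and WT shoots was 2.80 (SE 0.25).

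COW1, the lipid transfer protein gene, was detected in all shoots. It ranged from 141.8 to 194.2 CPM in WT roots, from 161.0 to 197.2 CPM in pxy roots and from 117.0 to 157.3 CPM in 41-OX roots. In shoots it ranged from 6.74 to 7.60 CPM in WT, from 6.86 to 10.8 CPM in pxy and from 29.9 to 39.1 CPM in 41-OX. Its log2 difference between 41-OX and WT shoots, 2.26 (SE 0.14), was the smallest of the 10.

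The receptor-like kinase gene RHS16 ranged from 80.6 to 105.9 CPM in WT roots, from 70.6 to 105.6 CPM in pxy roots and from 68.2 to 86.0 CPM in 41-OX roots. Its shoot levels ranged from 0.571 to 1.02 CPM in WT, from 0.549 to 0.972 CPM in pxy and from 7.32 to 8.42 CPM in 41-OX, a log2 difference between 41-OX and WT shoots of 3.25 (SE 0.26). Its log2 difference between pxy and WT shoots, -0.03, was the nearest to 0 of the 10. MRH6 stood at 46.8, 57.3, 46.3 and 47.1 CPM in WT roots, at 71.1, 80.0 and 59.6 CPM in pxy roots and at 57.2, 43.2, 55.2 and 41.9 CPM in 41-OX roots. In shoots MRH6 stood at 0.571, 0.362 and 1.40 CPM in WT, at 1.10, 2.31, 0.722 and 1.97 CPM in pxy and at 15.4, 16.2, 14.8 and 12.6 CPM in 41-OX. Its pxy roots lie above its WT roots without overlap, and its log2 difference between 41-OX and WT shoots was 4.25 (SE 0.31).

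Per kilobase of exon, the order in WT roots ran from RHS13 at 178.1 ± 22.7 CPM per kb through MOP10 at 138.1 ± 21.8 to RHD2 at 31.0 ± 3.37 and RHS16 at 28.2 ± 3.70 (SD, n = 4 each). RHS13 and MOP10 overlap in their ranges, as do RHD2 and RHS16. In 41-OX shoots RHS13 was again the highest at 63.8 ± 6.32 CPM per kb and RHS16 the lowest at 2.52 ± 0.161, beside RHD2 at 2.65 ± 0.171 (SD, n = 4 each). RHS13 and MOP10 did not overlap in 41-OX shoots, where MOP10 stood at 38.4 ± 4.88 CPM per kb. Of the exonic 50-base windows of the 10 genes, those of RHS16 recurred elsewhere in the genome in 25 of 2605 cases and those of the other 9 genes in none.

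Across the 10 genes the log2 difference between 41-OX and WT shoots had a median of 3.35, against 0.005 for all 20163 genes tested in shoots. Of all genes tested, 30.9% were called changed in this comparison and 15.1% were called higher, and 23.5% were higher with no overlap between the groups. Nothing is read from the 10 of 10 that were higher, since the genes were chosen for it. Against pxy shoots, which are compared with the same 41-OX libraries, the log2 differences of the 10 ran from 1.87 for COW1 to 3.50 for EXPA7 with a median of 2.88. The background in that comparison was 29.2% called and 14.5% called higher.

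A measure that sets the shoot against the root of the same genotype separated the 10 genes further. In 41-OX, the shoot level was 37.1% ± 3.67 of the root mean for RHS13 and 30.6% ± 3.89 for MOP10 (SD over 4 shoot libraries). It was 29.8% ± 3.14 for MRH6, 25.6% ± 3.07 for COW1 and 25.6% ± 5.05 for EXPA18. GH9C1 stood at 19.7% ± 2.30, PRP1 at 13.5% ± 4.03 and EXPA7 at 12.9% ± 0.784. RHS16 at 10.4% ± 0.665 and RHD2 at 8.49% ± 0.547 were the lowest, and their ranges did not overlap. In WT shoots the same measure ran from 0.588% for EXPA7 to 4.77% for RHS13, and in pxy shoots from 0.782% for PRP1 to 5.20% for COW1.

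The 151 other root-specific genes stood at a median of 5.25% in 41-OX shoots, with the 10th percentile at 2.65% and the 90th at 17.4%. The median of the 10 root hair growth genes was 22.6%. RHD2 lay above 103 of the 151 and RHS16 above 117, while EXPA18, MOP10, COW1 and MRH6 each lay above 150 and RHS13 above all 151. MOP10, RHS13, COW1 and MRH6 fall outside the root-specific class because their mean over WT and pxy shoots together was within 50-fold of that over the roots. The percentages come from the libraries that chose the genes, and they carry no test. With the WT shoot level subtracted first, a step chosen after seeing the data, the median of the 10 was 19.3% and that of the 151 was 4.00%.

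**Figure D2:**
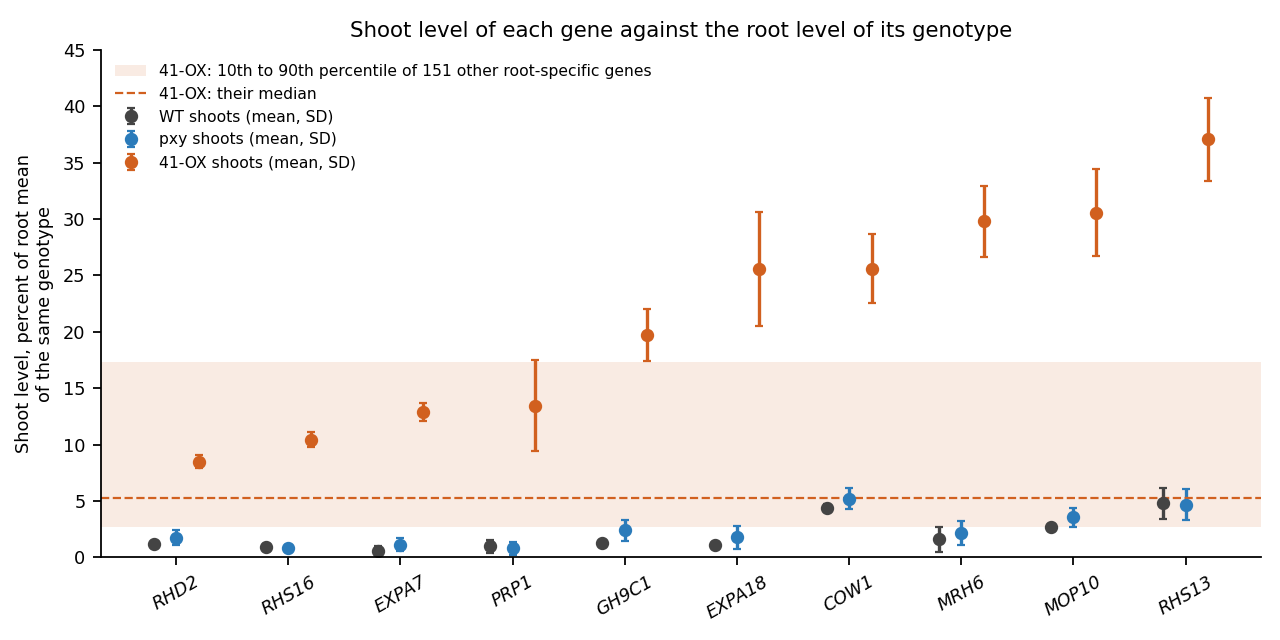
Shoot level of each gene as a percentage of the root mean of the same genotype, as mean with SD over 3 WT, 4 pxy and 4 41-OX shoot libraries. The 41-OX values run from 8.49% for RHD2 to 37.1% for RHS13, and the shaded band spans the 10th to 90th percentile (2.65% to 17.4%) of 151 other root-specific genes in 41-OX.

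Lists of other root cell types differed from each other on this scale. The 3 root cap markers with at least 5 CPM in 41-OX roots, SMB, BRN1 and BRN2, which specify cap cells, had a median of 3.502% of the root level in 41-OX shoots and 0.436% in WT shoots. Their summed level in 41-OX shoots was 1.71 to 4.21 CPM with the fourth marker, FEZ, included. The median was 17.2% for 8 endodermis genes, 12.3% for 3 root stele genes and 47.9% for 4 suberin genes, against 7.99%, 12.1% and 11.9% in WT shoots. Other root hair genes stood at 19.2% for 7 transcription factors, 20.4% for 17 wall genes and 29.8% for 18 genes of signalling and tip growth, and the WT shoot medians of these were 1.97%, 1.69% and 21.97%. The suberin share rests on both a lower root level and a higher shoot level. The summed suberin genes stood at a mean of 485.4 CPM in WT roots and 266.5 CPM in 41-OX roots. In shoots they stood at 58.3 CPM in WT and 124.8 CPM in 41-OX. Set against WT roots instead, a step chosen after seeing the data, the 41-OX shoot medians were 24.7% for suberin, 19.6% for endodermis, 4.15% for root cap, 18.6% for the 10 genes and 5.63% for the 151 other root-specific genes. On both scales the medians of the root hair, endodermis and suberin genes lay above that of the root cap genes, and what part other root cells or tissue had in this was not tested.

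**Figure D3:**
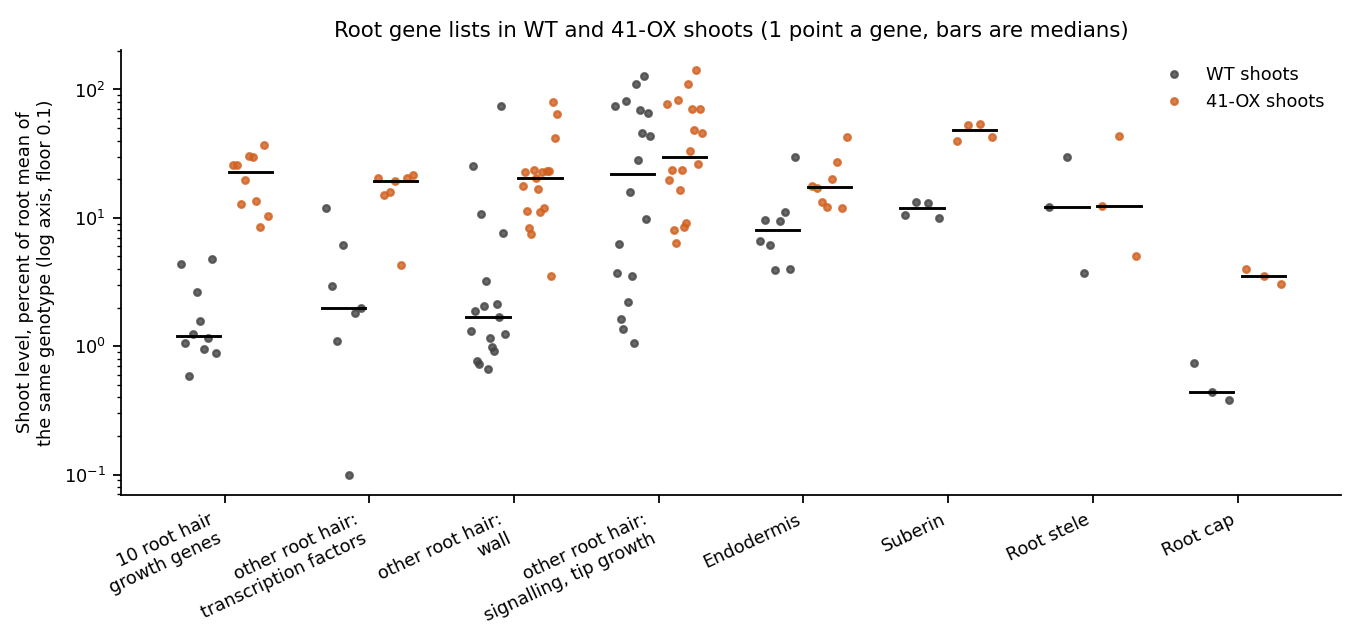
Shoot level as a percentage of the root mean of the same genotype on a log axis, with values under 0.1% drawn at 0.1%, for each gene of 8 lists in WT and 41-OX shoots, with medians as bars. The root cap genes, at a median of 3.502%, lie below the 10 root hair growth genes at 22.6%, and the signalling genes spread widely in both genotypes.

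The pxy-5 mutation was compared with WT in shoots. The WT shoot libraries were also part of the contrast that chose the genes, so a low WT level, and with it a difference above 0, is partly fixed by the choice. None of the 10 passed at a Benjamini-Hochberg adjusted p under 0.05 (edgeR quasi-likelihood test over 20163 genes). Of all genes tested, 1.70% passed. The difference was above 0 in 9 of the 10 genes, against 51.2% of all genes, and the median log2 change was 0.68 against 0.005. EXPA7, above 0, and RHS16, below 0, entered the fit only through the 41-OX libraries and are counted here. The 10 genes were read in the same libraries, so such counts, here and in the root comparisons below, are not of independent observations. An unadjusted p under 0.05 was found for 5 of the 10 and for 13.4% of all genes, and EXPA7 and RHS16 are not among the 5. GH9C1 was 1.61 CPM in WT and 3.14 CPM in pxy in the mean, a log2 change of 1.00 (SE 0.28, adjusted p = 0.0697). MOP10 was 3.17 and 5.13 CPM, a log2 change of 0.73 (SE 0.21, adjusted p = 0.0813). In these 2 genes every pxy shoot lay above every WT shoot, against 4.95% of all genes tested. For GH9C1 the gap was less than the worth of 1 count. Its lowest pxy shoot stood at 1.92 CPM from 14 counts and its highest WT shoot at 1.906 CPM from 15 counts. The other 8 overlapped between the groups, from RHS16 at -0.03 (SE 0.38) to MRH6 at 1.08 (SE 0.44).

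These pxy shoot values lie near the line of the test and depend on single libraries. GH9C1 passed in DESeq2 (adjusted p = 0.0491), without the low-count filter (adjusted p = 0.0291) and without pxy shoot replicate 1 (adjusted p = 0.0314), and MOP10 passed without the filter (adjusted p = 0.0442). Over the 7 fits that each left out 1 library, the adjusted p of GH9C1 ran from 0.0314 to 0.286. On WT and pxy shoots alone 8 of the 10 would pass the low-count filter.

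Between pxy and WT roots none of the 10 passed (edgeR, adjusted p under 0.05 over 20300 genes), against 8 genes or 0.0394% of all. All 10 differences were above 0, against 48.7% of all genes, with a median log2 change of 0.18 against -0.01. An unadjusted p under 0.05 was found for 3 of the 10 and for 2045 of the 20300 genes tested. MRH6 had the largest, 49.4 CPM in WT and 70.2 CPM in pxy, a log2 change of 0.54 (SE 0.13, adjusted p = 0.406). It was the only one of the 10 in which the groups did not overlap, against 3.65% of all genes higher in that way, and DESeq2 called it (adjusted p = 0.0193) among 100 genes. RHS13 followed at a log2 change of 0.38 (SE 0.11, adjusted p = 0.429), and the other 8 lay between 0.03 and 0.30.

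In roots with constitutive CLE41 none of the 10 passed against WT (edgeR, adjusted p under 0.05), beside 6.56% of all genes changed and 4.65% lower. The median log2 change was -0.16 against 0.01 for all genes, 7 of the 10 lay below 0 as did 47.2% of all genes, and 1 of the 10 had an unadjusted p under 0.05, against 19.2% of all. That gene was GH9C1, at 129.2 CPM in WT and 102.4 CPM in 41-OX roots, a log2 change of -0.32 (SE 0.10, adjusted p = 0.0887). Each 41-OX root lay below each WT root in GH9C1, as in 11.5% of all genes tested, and the gene passed when only these 2 groups were fitted (adjusted p = 0.0391). The log2 change of PRP1 was -0.43 (SE 0.26), and those of EXPA18, COW1 and RHS16 lay between -0.23 and -0.20. EXPA7, at 0.14 (SE 0.17), RHD2 and MRH6 lay above 0. All 10 genes were below their group mean in 41-OX root replicate 4, the library with shoot-specific transcripts at 11.4%, and no gene of the 10 passed in any of the 8 fits that left out 1 library.

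**Figure D4:**
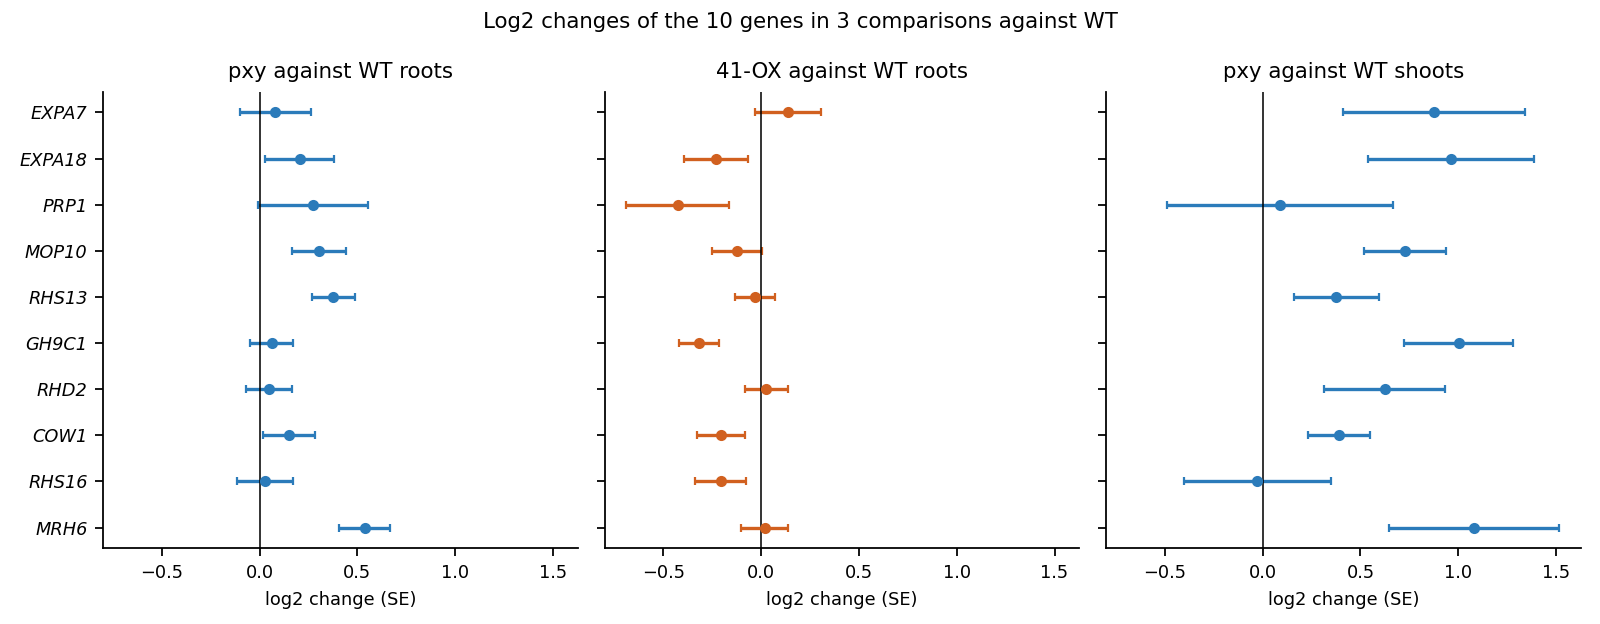
Log2 change with its SE for the 10 genes in pxy against WT roots, 41-OX against WT roots and pxy against WT shoots, from edgeR fits of 11 root and 11 shoot libraries. The root changes lie between -0.43 and 0.54, the pxy shoot changes run up to 1.08 with wider errors, and none of the 30 passed an adjusted p under 0.05.

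The organ difference was tested within WT and within pxy. The 41-OX libraries were not compared here, but the low-count filter, the scaling and the estimate of the spread used them, in a fit of 22 libraries. All 10 genes were higher in roots in WT, by log2 changes from 4.07 (SE 0.19) for RHS13 to 6.93 (SE 0.31) for EXPA7, with a median of 6.03. Of 21397 genes tested, 80.3% differed between WT root and shoot and 39.5% were higher in root. In pxy the 10 were higher in roots by 3.92 (SE 0.14) for COW1 to 6.61 (SE 0.43) for PRP1, with a median of 5.32, where 79.9% of genes differed and 39.6% were higher in root. The largest adjusted p of the 20 values was 3.96e-10, for PRP1 in WT (edgeR quasi-likelihood test, 22 libraries). WT shoots were also part of the contrast that chose the genes, so a low WT shoot level is partly fixed by the choice.

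In several libraries all 10 genes lay on the same side of their group mean. Deviations were taken on the scale of log2(CPM + 0.5) from the mean of the group. In WT roots, replicate 2 was above the group mean in all 10 genes, with a median deviation of 0.24, and replicate 3 was below it in all 10. In 41-OX roots, replicates 1 and 3 were above in all 10 and replicate 4 below in all 10. In pxy shoots, replicate 2 was above in all 10, with a median of 0.42, replicate 4 above in 9, and replicate 1 below in all 10, with a median of -0.45. The median of all root-specific genes was also lowest in pxy shoot replicate 1, at 0.702% of the root mean, beside 1.42% and 1.43% in replicates 2 and 4. The part that small amounts of root tissue or differences in dissection had in these deviations was not tested.

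**Figure D5:**
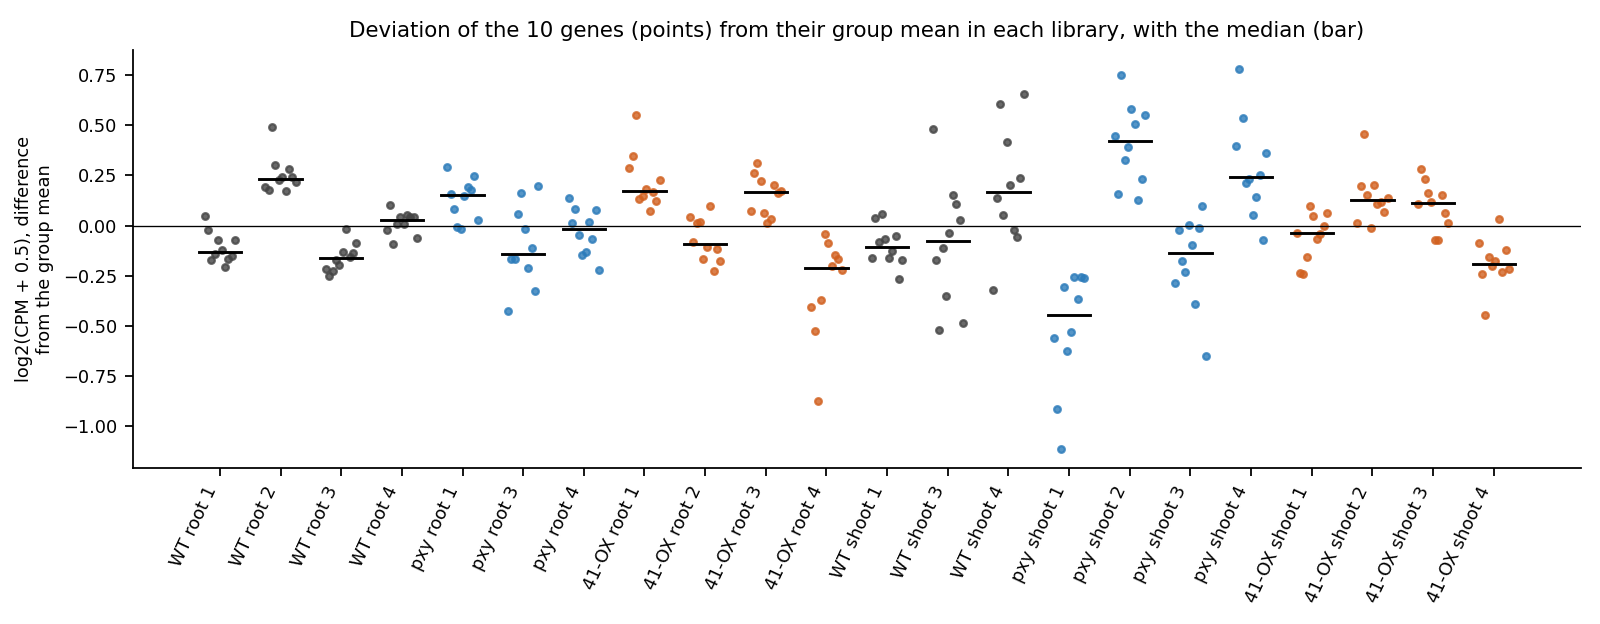
Deviation of each of the 10 genes (points) from its group mean in each of the 22 libraries, in log2(CPM + 0.5), with the median (bar). Whole columns of points lie to one side of 0, as in WT root 2, 41-OX root 4 and pxy shoots 1 and 2.

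The list of 44 other root hair genes was assembled with earlier results of these data known. In 41-OX shoots 28 of its 40 tested genes were higher than in WT and 0 lower, where 15.1% of all genes were higher and 15.8% lower, with a median log2 change of 2.06 against 0.005 for all genes (edgeR, adjusted p under 0.05). By role, 6 of 6 tested transcription factors, 14 of 16 wall genes and 8 of 18 genes of signalling and tip growth were higher. RHS16 entered the fit only through the 41-OX libraries, with at most 1.02 CPM in WT and 0.972 CPM in pxy shoots. The list gene RHS14 was lower still, at most 0.800 and 0.926 CPM. A list gene that enters in this way could hardly be called lower in 41-OX, against WT or pxy, and is likely to be called higher. The counts of higher list genes, also by role, are therefore partly fixed by the filter and by how the list was assembled. They are given as a description. How many genes entered in this way was not counted. RHS18, a peroxidase gene, was 0.945 CPM in WT and 17.2 CPM in 41-OX shoots (log2 change 4.21, SE 0.41). XTH26, a xyloglucan-modifying enzyme gene, was 0.447 and 8.36 CPM (4.16, SE 0.30), and RHS14, a pectate lyase-like gene, was 0.436 and 6.01 CPM (3.795, SE 0.41). The transcription factor gene LRL3 was 0.845 and 12.5 CPM (3.87, SE 0.32). RSL4 changed by 3.19 (SE 0.28), RSL2 by 3.35 (SE 0.31) and RHD6 by 1.85 (SE 0.30).

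The same list was read in the other comparisons. Against pxy shoots, 28 of 40 were higher in 41-OX, against 14.5% of all genes, and 1, RABA4B, a vesicle trafficking GTPase gene, was lower (log2 change -0.23, SE 0.07, adjusted p = 0.0167), a call that was lost without pxy shoot replicate 1 or 41-OX shoot replicate 2 or 4. None of 40 passed between pxy and WT shoots (edgeR), where 1.70% of all genes did. Of the 40, 9 had an unadjusted p under 0.05, against 13.4% of all genes. None of 44 passed between pxy and WT roots (edgeR), where 0.0394% of all genes did. Of the 44, 6 had an unadjusted p under 0.05, against 2045 of the 20300 genes tested. In 41-OX roots 2 of 44 were lower than in WT, XTH26 by -1.45 (SE 0.29, adjusted p = 0.0101) and RHS18 by -0.44 (SE 0.11, adjusted p = 0.0325), and none was higher, while 4.65% of all genes were lower. The count fell to 1 without WT root replicate 1, 2 or 4 or 41-OX root replicate 2 or 4. Every 41-OX root lay below every WT root in XTH26, and the groups overlapped in RHS18. Whether these genes differ between organs in their response was not tested.

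Markers of other cell types were read in 41-OX shoots beside the shares of all genes tested, 15.1% higher and 15.8% lower than in WT. All 8 tested endodermis genes were higher than in WT (edgeR, median log2 change 1.3), led by PER64, a Casparian strip peroxidase gene (1.76, SE 0.22), CASP4 (1.58, SE 0.28) and CASP1 (1.56, SE 0.21). Of 4 suberin genes 2 were higher in shoots, ASFT and GPAT5, and in 41-OX roots 3 of the 4 were lower, FAR4 by -1.46 (SE 0.12), where 4.65% of all genes were lower. Of 3 tested root stele genes SHR, a transcription factor gene of radial patterning, was higher (0.66, SE 0.15, list median 0.40), and neither of the 2 cortex genes passed (median -0.03). Of 8 tested regulators of epidermal fate 3 were higher, WER, which specifies non-hair cells (0.92, SE 0.18), EGL3 (0.67, SE 0.24) and GL2 (0.49, SE 0.18). The list did not move as a whole, since 4 of the 8 lay below 0, down to -0.86, and its median was 0.03. Of 10 photosynthesis genes 3 were lower, with log2 changes from -0.33 to -0.27, and of 3 tested trichome genes GL1, at 1.73 CPM in WT and 0.880 CPM in 41-OX, was lower (-1.05, SE 0.39, adjusted p = 0.0448). The groups overlapped in GL1, and none of the 3 trichome genes was called against pxy shoots. The root cap genes were too low to be tested in shoots.

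Across the 6 group means, the gene with the profile nearest to the median of the 10 was AT5G04960, with a root mean square difference of 0.07 in log2(CPM + 0.5). It was followed among 19593 candidates by PRP3 at 0.11, LRL3 at 0.14, AT4G22666 at 0.15, IRT2 at 0.15 and FLA6 at 0.15. RHS19, AT3G07070, RHS14 and RSL2 completed the nearest 10 at 0.17 to 0.18. AT5G04960 stood at 150.0, 157.4 and 118.3 CPM in WT, pxy and 41-OX roots and at 2.16, 3.76 and 21.0 CPM in the corresponding shoots. Of the 10 root hair growth genes themselves, GH9C1 lay nearest to their median at 0.06, and RHS13 at 0.57 and COW1 at 0.56 lay farthest. The libraries behind these means are the same for every gene, and 5 of the 10 nearest genes remained with a pseudocount of 0.1 and 5 with a pseudocount of 2.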

How the data were processed

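Per the submitters' processing notes, reads were handled with CASAVA, TopHat2 and HTSeq on the genome build TAIR10. Versions, annotation release, strand setting and overlap mode are not given in the sources used here. The deposited values are raw counts, with a column for each sample and a row for each locus. Each sample had 2 technical replicates per the design text, and whether the authors pooled them is not stated. HTSeq summary lines stayed out of totals, with no-feature reads at 1.82% to 3.41% and ambiguous reads at 1.80% to 2.61%.

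The 10 genes and all lists were chosen with earlier results of these data known. Genes named from a list are up to 4 called per direction and comparison, by size of change, and RSL4, RSL2, RHD6 and regulators of epidermal fate were added after their values were seen. Levels are CPM of the library total. The test was edgeR's robust quasi-likelihood F-test, two-sided, with filterByExpr and TMM (edgeR 4.0.16, R 4.3.3). The 11 root and 11 shoot libraries were fitted apart, and root against shoot was tested in 1 fit of 22. Changes were called where p, adjusted by Benjamini-Hochberg over every gene in the fit, was under 0.05. DESeq2 1.42.0, scaling, filters, sets of libraries, a replicate block and each left-out library were alternatives. The test was tried on simulated counts. Upstream sequences were read from TAIR10.1, and gene names were matched by locus code. Counting error sets the precision of levels near 1 CPM.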

Additional observations from a re-analysis of the deposited data

Results flagged for a closer look

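MRH6 and PRP1 in WT roots each had 1 library far from the other 3. MRH6 stood at 57.3 CPM in WT root replicate 2 against 46.3 to 47.1 CPM in the others, and PRP1 at 155.7 CPM in the same library against 94.4 to 103.7 CPM. The gap exceeded Dixon's 95% critical value in these 2 of 40 groups of 4 libraries, and chance flags about 5% of groups. All 10 genes were above their group mean in this library.

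GH9C1 differed from WT in opposite directions in the organs of 41-OX without passing the test in roots (edgeR log2 change -0.32, adjusted p = 0.0887). Every 41-OX shoot lay above every WT shoot, and every 41-OX root, the highest at 115.7 CPM, lay below every WT root, the lowest at 117.3 CPM. Of all genes tested in roots, 11.5% were lower with no overlap, and the shoot difference is one the gene was chosen for. The difference between the organs was not tested.

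A shoot profile led to the library labelled pxy root replicate 2 being left out. The summed level of the 10 genes in it was 78.7 CPM, above every WT shoot (21.8 to 27.7 CPM) and every pxy shoot (22.1 to 42.9 CPM). In this library root-specific genes had a median of 5.24% of the root mean, near the 5.44% to 6.78% of the 41-OX shoots. The 10 genes stood there at a median of 5.14% of the mean of the 3 pxy roots, from 3.15% for RHS16 to 12.1% for RHS13, and in 41-OX shoots at 22.6% of the 41-OX root mean. The cause was not tested.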

How the results depend on the processing

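The root to shoot difference of the 10 genes in WT and pxy was called in 10 of 10 under every alternative run, and the 41-OX root comparison called none of them except 1, GH9C1, when only the 2 groups were fitted. Between pxy and WT shoots 343 genes were called, 143 with the 22 libraries in 1 fit and 117 to 397 without 1 library, the lowest without WT shoot replicate 3. The count was 187, 181 and 212 without WT shoot replicate 1, pxy shoot replicate 3 and pxy shoot replicate 4. Of the 10 genes, 2 were called there without the low-count filter, 1 by DESeq2 and 0 to 1 without 1 library. Between pxy and WT roots 8 genes were called, 100 by DESeq2, 1 with the left-out libraries added, 4 with only the 2 groups, 14 with 22 libraries and 3 to 10 without 1 library; DESeq2 called 1 of the 10 genes. Between 41-OX and WT roots 1332 genes were called, 137 with the left-out libraries added, 2382 with only the 2 groups and 859 to 1277 without 1 library, the lowest without WT root replicate 3, beside 883 without replicate 4 and 871 without 41-OX root replicate 2. The causes were not tested.

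With the left-out libraries added, a shoot profile enters the pxy roots, and the log2 changes of EXPA7 (-0.29), EXPA18 (-0.17), PRP1 (-0.10), MOP10 (-0.056), GH9C1 (-0.31), RHD2 (-0.32), COW1 (-0.20) and RHS16 (-0.35) against WT turned negative, none called. Uncalled values also changed sign in fits without 1 library. In pxy roots EXPA7 ran from -0.071 to 0.27, GH9C1 from -0.017 to 0.17, RHD2 from -0.056 to 0.16 and RHS16 from -0.10 to 0.18. In 41-OX roots RHS13 ran from -0.095 to 0.057, RHD2 from -0.042 to 0.093 and MRH6 from -0.059 to 0.10, and in pxy shoots PRP1 from -0.30 to 0.62 and RHS16 from -0.20 to 0.15. The median level of the 10 genes in 41-OX shoots was 26.4% of the root mean with TMM scaling, 19.3% less the WT shoot level, 18.6% against the WT root mean (chosen after seeing the data) and 21.2% to 23.7% without 1 library. Of the 10 most similar genes 5 remained with a pseudocount of 0.1 and 5 with 2.

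Replicate numbers were not taken to pair the samples, since deviations of same-numbered libraries correlated at -0.49 to 0.35 between genotypes in roots, -0.26 to 0.14 between genotypes in shoots and -0.11 to 0.15 between root and shoot of a genotype, over 10 pairs each. With the number as a replicate block, 3 genes were called between pxy and WT roots, and PRP1 in pxy shoots changed by -0.14.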
